A study of Danio rerio with 3 samples.

Results

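The epidermal keratin genes examined here were krt1-19d, krt1-19e, krt4, krt5 and krt8. They are 5 of the 8793 genes named on the array, and were found as the probe sets whose only gene symbol in the platform annotation is one of these names. This gave 7 of 15502 probe sets: 2 for krt1-19d, 2 for krt1-19e and 1 each for krt4, krt5 and krt8. RNA came from whole zebrafish embryos at 24 hours post-fertilization, raised at 28 ± 0.5 °C. The 3 groups were embryos given an siRNA against zebrafish PGRP-SC, embryos given a control siRNA, and embryos that received no injection, and each group was 1 pool of 400 embryos measured on 1 array. Both siRNAs were injected into zygotes at 300 ng/µl in 1 nL per embryo. Embryos of different parents were mixed before division into groups, with a collection window of 5 minutes after fertilization and 30 minutes for injecting. The label of the PGRP-SC sample gives only the target, and that an siRNA was used is taken from the series' design text. No strain is named in the sources used here.

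Keratins are the intermediate filament proteins of epithelia. A filament needs a type I and a type II keratin in partnership, and the filaments are anchored at desmosomes between cells and hemidesmosomes at the basement membrane. At this stage zebrafish skin has an outer layer, the periderm, above a basal layer of keratinocytes. The genes krt4, krt5 and krt8 encode type II keratins, and krt4 is widely used as a marker of the outer layer. The genes krt1-19d and krt1-19e encode type I keratins, and krt1-19e, also known as krtt1c19e, is used as a marker of basal keratinocytes. Keratin 8 pairs with keratin 18 in simple epithelia.

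With 1 array per group nothing measures the spread between embryo pools, so no test was possible and no p-value was computed. The number of arrays limits the precision of every value, and with no replicates no error is given beside a value. Signals are in arbitrary units, scaled so that the overall level of the arrays is equal. The median signal was 161.7, 169.5 and 166.5 on the PGRP-SC siRNA, control siRNA and uninjected arrays. Signals under a floor of 101.7, the 40th percentile of all signals, were raised to it, and where only 1 of the 2 arrays was above it the ratio is a bound. Between the 2 control arrays, the ratio stayed under 1.71-fold for 95% of the 8870 probe sets that passed the floor on both, which is the background against which ratios are read. The annotation named 0 probe sets for the peptidoglycan recognition proteins, so the targeted gene could not be checked. The arrays also differed in the 5' to 3' signal ratio of the acta1 control probe sets, which was 0.127 with PGRP-SC siRNA, 0.205 with control siRNA and 0.369 without injection. The same ratio for GAPDH was 0.498, 0.347 and 0.35 in the same order. The part of this difference in the keratin values was not tested.

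The krt1-19 copies were lower in embryos given PGRP-SC siRNA than in both controls, while krt4, krt5 and krt8 were within the background over all probe sets. Beside probe sets of like brightness, krt8 was above the range between the controls but inside the ranges of its own comparisons, as given below. The brighter krt1-19e probe set read 185.9 with PGRP-SC siRNA, 742.6 with control siRNA and 1515 without injection. The 3 arrays were thus well apart, each control above the PGRP-SC siRNA array and the uninjected array highest. Against control siRNA this was 3.99-fold lower, a log2 ratio of -2.00, and 15 of the 9853 probe sets with a ratio, itself included, had one as low. Against uninjected embryos it was 8.15-fold lower, a log2 ratio of -3.03, and 6 of 9992 probe sets were as low.

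The dimmer krt1-19e probe set had signals of 60.4 with PGRP-SC siRNA, 113.2 with control siRNA and 440.5 without injection. It keeps the same order of arrays, but the PGRP-SC siRNA value lies under the floor and the control siRNA value just above it. It was therefore at least 1.11-fold lower than with control siRNA, a bound that says little, and at least 4.33-fold lower than in uninjected embryos. The name of the brighter probe set ends in the array maker's suffix for probes shared by several transcripts of one gene.

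Both krt1-19d probe sets were under the floor with PGRP-SC siRNA and above it in both controls. The brighter read 44.5 with PGRP-SC siRNA, against 351.1 with control siRNA and 410.2 without injection. That was at least 3.45-fold lower than with control siRNA and at least 4.03-fold lower than without injection. The dimmer had 17.9 with PGRP-SC siRNA, against 210.8 with control siRNA and 218.4 without injection, or at least 2.07-fold and at least 2.15-fold lower. For this gene the 2 control arrays lay close together and the PGRP-SC siRNA array stood alone.

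The copies therefore differed in the comparison of control siRNA with uninjected embryos. The krt1-19e probe sets were 2.04-fold lower (log2 ratio -1.03) and 3.89-fold lower (-1.96) with control siRNA, and 72 and 7 of 9799 probe sets were as low. The krt1-19d probe sets had log2 ratios of -0.22 and -0.05 in the same comparison, both inside the background. The effect of being injected and all other variation between these pools cannot be told apart here. Since embryos were whole, fewer cells of a type and less RNA per cell cannot be told apart either.

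**Figure D1:**
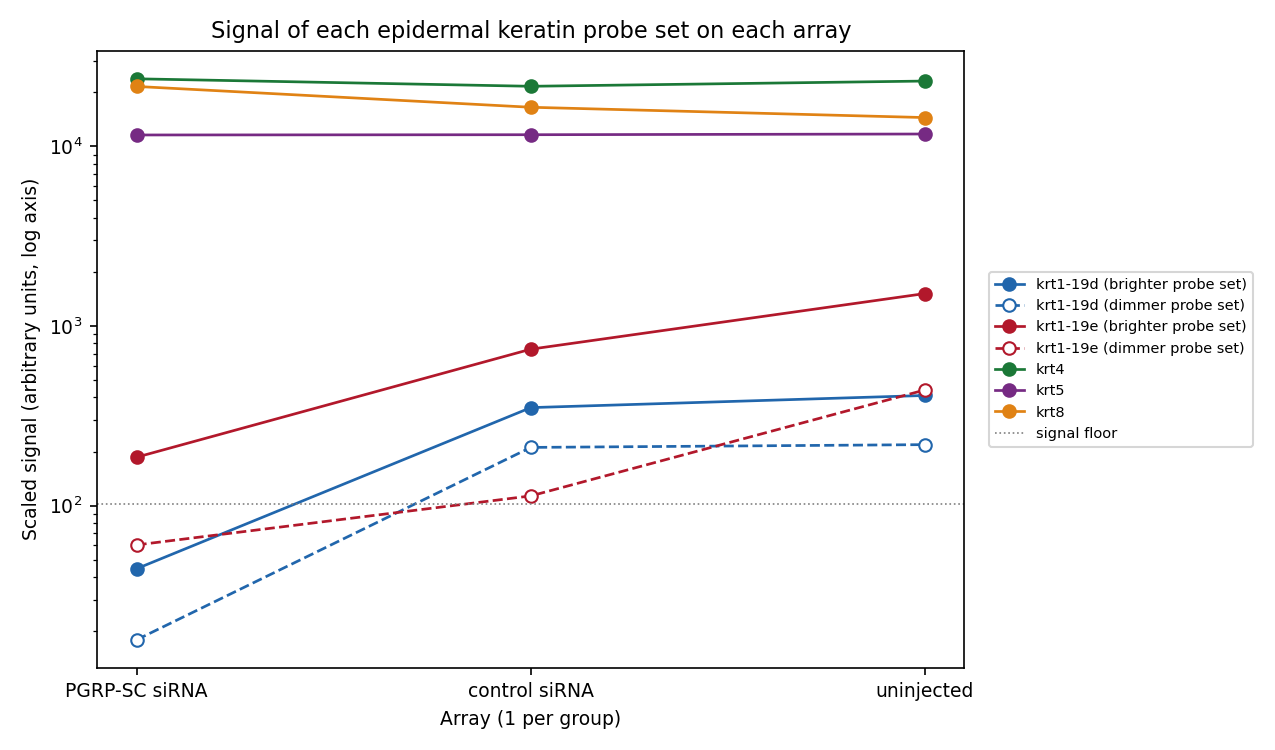
Scaled signal in arbitrary units (log axis) of each of the 7 epidermal keratin probe sets on the PGRP-SC siRNA, control siRNA and uninjected arrays, 1 array per group; open points mark the dimmer probe set of a gene and the dotted line the floor of 101.7. The lines for krt4 and krt5 are nearly level, krt8 is highest with PGRP-SC siRNA, and the 4 krt1-19 probe sets are lowest there.

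The gene krt4 had signals of 23761 with PGRP-SC siRNA, 21587 with control siRNA and 23085.5 without injection. Its log2 ratios were 0.14 against control siRNA and 0.04 against uninjected embryos, and -0.10 between control siRNA and uninjected. The gene krt5 varied least, with 11565 with PGRP-SC siRNA, 11603 with control siRNA and 11709.6 without injection. The highest and the lowest of these differ by 1.01-fold, so no array stands out for krt5. Its log2 ratio against control siRNA was -0.0048, and the sign turned with the scaling, at 0.06 under median scaling and -0.10 under quantile normalization. The sign of krt4 against uninjected embryos also turned under quantile normalization, at -0.11.

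The gene krt8 had signals of 21542 with PGRP-SC siRNA, 16497 with control siRNA and 14456 without injection. The arrays follow the reverse of the krt1-19e order. The log2 ratios were 0.38 against control siRNA, 0.58 against uninjected embryos and 0.19 between control siRNA and uninjected. All 3 lie inside the background of 1.71-fold, and 19.1% of probe sets had a ratio against control siRNA as high. The gene krt18a.1, which encodes the type I partner keratin 18, had 10720.2 with PGRP-SC siRNA, 7447 with control siRNA and 5463 without injection. It had the same order of arrays as krt8 and log2 ratios of 0.53, 0.97 and 0.45. Its difference from uninjected embryos, 1.96-fold, was outside the background and just short of 2-fold, and was 1.01 on the log2 scale under median scaling.

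Against control siRNA, 3 of the 7 keratin probe sets were at least 2-fold lower and 0 at least 2-fold higher, where 3.5% of all probe sets were at least 2-fold lower and 2.83% at least 2-fold higher. The 3 were the brighter krt1-19e and both krt1-19d probe sets. The krt1-19d calls were lost when the floor was raised to the 60th percentile, a signal of 269.4. The bound of the brighter krt1-19d probe set then shrank to -0.38 on the log2 scale and the dimmer gave no ratio. Of the 5 probe sets that still gave a ratio, 1 was at least 2-fold lower. With no floor the krt1-19d log2 ratios were -2.98 and -3.56, but these use PGRP-SC siRNA signals under the floor. Against uninjected embryos all 4 krt1-19 probe sets were at least 2-fold lower, beside 6.34% of all probe sets. Between control siRNA and uninjected embryos the 2 krt1-19e probe sets were at least 2-fold lower, beside 0.857% of all probe sets. At least 2-fold lower than both controls were 3 of the 7 keratin probe sets and 2.64% of the 9675 probe sets with both ratios. These comparisons share arrays, so their counts are not independent of each other.

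With each gene taken by its brightest probe set on average, the median log2 ratio of PGRP-SC siRNA against control siRNA was -1.89 for the krt1-19 copies and 0.14 for krt4, krt5 and krt8. The difference between these medians was -2.03, or 4.09-fold. It was -2.56 against uninjected embryos and -0.61 between control siRNA and uninjected. The krt1-19d value in the first and second of these is a bound, so the first and second differences would be wider without a floor. The difference says that the genes changed unequally between these arrays, not that krt4, krt5 or krt8 was constant per embryo.

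The contrast goes with a contrast in brightness. On average krt5 was the dimmest of the 3 bright probe sets, and 159 probe sets were at least as bright. With PGRP-SC siRNA against control siRNA, 1 of them, or 0.629%, passed 2-fold upwards and 0 passed it downwards, and the middle 95% of their log2 ratios ran from -0.66 to 0.53. The values of krt4, krt5 and krt8 lay inside that range. For PGRP-SC siRNA against uninjected embryos the range ran from -0.92 to 0.67, and the values of krt4, krt5 and krt8 lay inside it too. Between control siRNA and uninjected embryos the range was narrower, from -0.48 to 0.34. The krt8 log2 ratios of PGRP-SC siRNA against control siRNA and against uninjected embryos, 0.38 and 0.58, lie above it. Those of krt4 and krt5 lie inside it. Of the 5280 probe sets with a mean signal between those of the dimmest and the brightest krt1-19 probe set, 5.23% were at least 2-fold lower. The highest signal of any probe set was 47555 with PGRP-SC siRNA, 41277 with control siRNA and 47328 without injection, all above the krt4 signals. The part of signal brightness in the contrast was not tested.

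**Figure D2:**
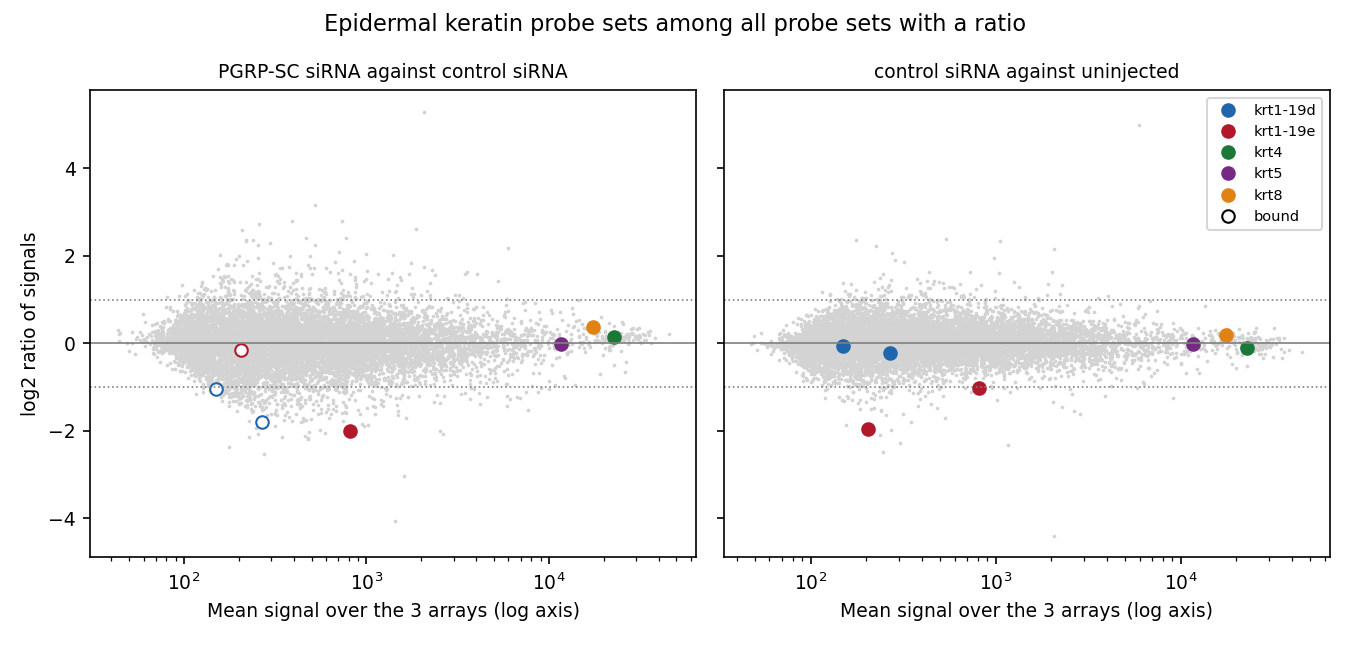
Log2 ratio of signals against the mean signal over the 3 arrays (log axis) for all probe sets with a ratio (grey) and the 7 epidermal keratin probe sets (coloured; open points are bounds), for PGRP-SC siRNA against control siRNA on the left and control siRNA against uninjected on the right; dotted lines mark 2-fold. The krt1-19d points and the brighter krt1-19e point lie at or below the lower 2-fold line on the left. The 2 krt1-19e points do so on the right, and krt4, krt5 and krt8 lie between the 2-fold lines in both.

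The array named 10 further keratin genes, and 8 of them gave a ratio against control siRNA. Of these, krt17, krt91 and krt18b were at least 2-fold lower with PGRP-SC siRNA and 0 were at least 2-fold higher, beside 2.93% and 2.87% of the 6514 named genes with a ratio. A type I keratin used as a periderm marker, krt17 had signals of 3328 with PGRP-SC siRNA, 9057 with control siRNA and 5206 without injection. Here the control siRNA array was the highest, so the log2 ratio was -1.44 against control siRNA but -0.65 against uninjected embryos, and 0.80 between the controls.

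The brighter krt91 probe set had 104.2 with PGRP-SC siRNA, 288.2 with control siRNA and 411.2 without injection, log2 ratios of -1.47 and -1.98 against the controls. Its name carries the suffix for probes that can match other sequences. The other krt91 probe set, without that suffix, had 135.9 with PGRP-SC siRNA, 307.8 with control siRNA and 331.9 without injection, log2 ratios of -1.18 and -1.29. In both, the PGRP-SC siRNA array was the lowest and the uninjected array the highest. The gene krt18b had 150.2 with PGRP-SC siRNA, 359.8 with control siRNA and 550.5 without injection, log2 ratios of -1.26 and -1.87. It has the same order of arrays as krt1-19e.

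The genes krt97, krt94 and krt99 were not lower with PGRP-SC siRNA than with control siRNA. The gene krt97 had 6532 with PGRP-SC siRNA, 5500.3 with control siRNA and 5197 without injection, with a log2 ratio of 0.25 against control siRNA. The gene krt94 had 239.9 with PGRP-SC siRNA, 149.2 with control siRNA and 220.6 without injection, and its log2 ratio was 0.69 against control siRNA and 0.12 against uninjected embryos. The gene krt99 had 1421 with PGRP-SC siRNA, 1278 with control siRNA and 418.7 without injection. It was 3.39-fold higher than in uninjected embryos with PGRP-SC siRNA and 3.05-fold higher with control siRNA, so both injected arrays stood above the uninjected one. The gene krt15 had 20.2 with PGRP-SC siRNA, 115.9 with control siRNA and 94.8 without injection, and only the control siRNA value was above the floor. Its PGRP-SC siRNA signal was the lowest of the 3 and the bound, at least 1.14-fold lower than with control siRNA, leaves the size unknown. The genes krt93 and krt95 were under the floor on all 3 arrays and gave no ratio.

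In the current RefSeq gene table (assembly GRCz12tu) the krt1-19 copies are next to each other, in a run of 7 keratin genes with 1 other gene among them: krt1-19d, krt1-19e, krt92, cyt1l, cyt1, krt17 and krt91. This grouping was chosen after the values were seen. The genes krt1-19d, krt1-19e, krt17 and krt91 had probe sets of their own. All 4 were at least 2-fold lower with PGRP-SC siRNA than with control siRNA, from -2.00 to -1.44 on the log2 scale. The share over all named genes was 2.93%. This count includes the krt1-19 copies, already given above as lower, so only krt17 and krt91 add to them. The krt1-19d value is a bound, and the krt91 signal with PGRP-SC siRNA, 104.2, lay just above the floor of 101.7. With the floor at the 60th percentile, krt1-19d and krt91 were no longer at least 2-fold lower than with control siRNA, while krt1-19e and krt17 still were. Against uninjected embryos krt17 was at -0.65, inside the background over all probe sets. Between control siRNA and uninjected embryos krt17 was at 0.80, outside that background, so its call against control siRNA goes with a high control siRNA signal. Of the 9 keratin genes elsewhere with a ratio against control siRNA, 1, krt18b, was at least 2-fold lower, and krt15 has only a bound. Against uninjected embryos 3 of the 4 and, elsewhere, 1 of 8 were at least 2-fold lower, beside 6.09% of named genes. Between control siRNA and uninjected embryos 1 of the 4, krt1-19e, was at least 2-fold lower and 0 of 9 elsewhere were, beside 0.774% of named genes. The genes krt92, cyt1l and cyt1 had no probe set of their own and were not analysed here.

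The type II genes krt5 and krt8 are also neighbours, followed by krt18a.1 and krt18a.2, and none of the 3 measured genes of this run was at least 2-fold apart in any comparison, apart from krt18a.1 under median scaling as given above. The gene krt4 lies near krt18b with 1 gene between them. The log2 ratios of PGRP-SC siRNA against control siRNA were 0.14 for krt4 and -1.26 for krt18b, and against uninjected embryos 0.04 and -1.87. The same table lists krt8 among the older names of krt4, so an older source that names krt8 can mean either gene, and the values here follow the gene ID.

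**Figure D3:**
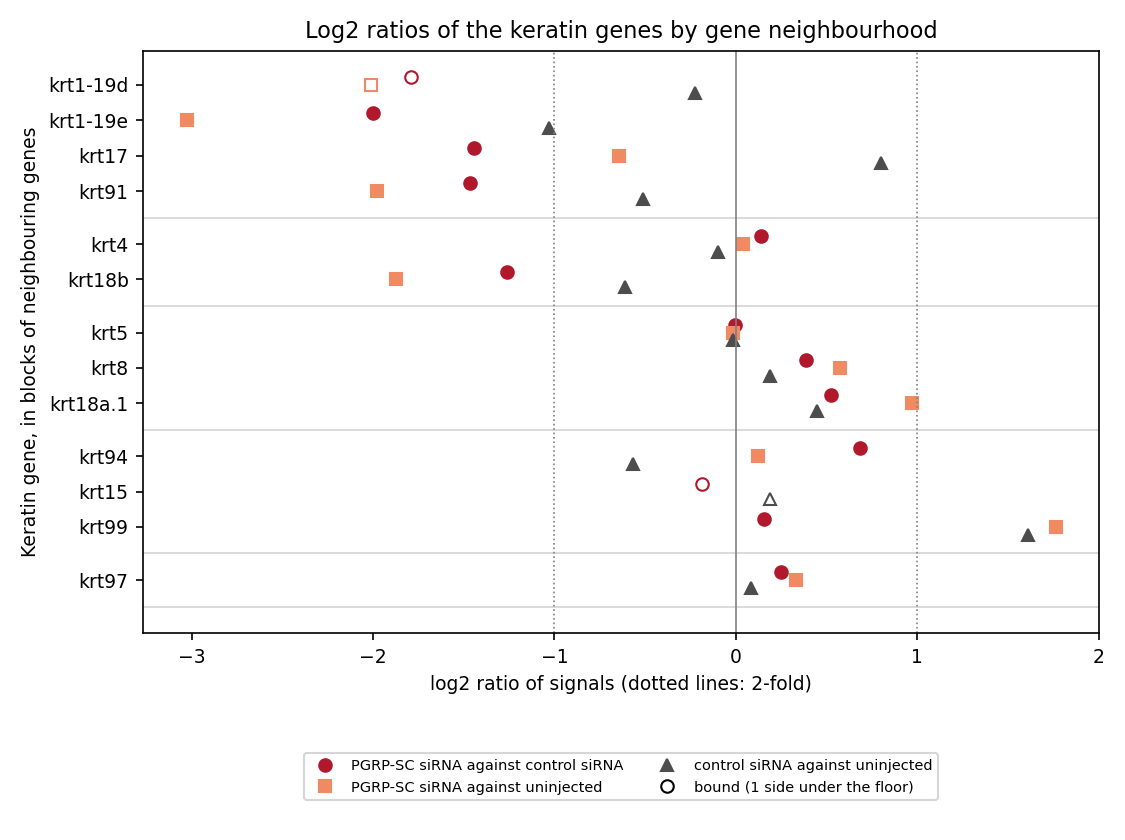
Log2 ratios of the 13 keratin genes with a ratio, each by its brightest probe set on average, in blocks of neighbouring genes; the marker shape gives the comparison, open markers are bounds and dotted lines mark 2-fold. In the top block all 4 genes lie left of the lower 2-fold line with PGRP-SC siRNA against control siRNA. The points of krt4, krt5 and krt8 lie between the 2-fold lines, with krt8 above 0 in every comparison.

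Of the periderm markers on the array all 24 were above the floor on at least 1 array, and of the basal epidermis markers 15 of 17 were. By their median ratios, the other genes of the epidermis did not follow the krt1-19 copies as lists. Apart from the 5 keratin genes themselves, the lists for periderm, basal epidermis, adhesion and junctions, ionocytes, and mucous and hatching gland cells held 73 genes on the array, and 64 gave a ratio of PGRP-SC siRNA against control siRNA. The median log2 ratio was 0.11, beside -0.0026 over all named genes. At least 2-fold lower were 2 of the 64 genes and 0 were at least 2-fold higher, a count near the shares of 2.93% and 2.87% over all named genes. The 2 were krt17 and atp1b1b, which encodes a sodium pump subunit and had a log2 ratio of -1.13. The other named ionocyte list genes were atp6v0ca, of a proton pump, at 0.29 and the Notch ligand gene dlc at 0.24. In the mucous and hatching gland list klf17, a transcription factor gene of the hatching gland, was at 0.94, tfa, of transferrin, at 0.51 and agr2 at -0.26. Against uninjected embryos 5 of 65 were at least 2-fold lower and 4 at least 2-fold higher, where 6.09% and 5.76% of all named genes were. Between control siRNA and uninjected embryos 1 of 65, the secretory cell gene agr2, was at least 2-fold lower, beside 0.774% of named genes. Some genes are in more than 1 of these lists.

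In the basal epidermis list, 14 genes gave a ratio against control siRNA and 0 were at least 2-fold apart, with a median of -0.03 that turned to 0.04 under median scaling. Over all named genes 2.93% were at least 2-fold lower and 2.87% at least 2-fold higher, so a count of 0 in 14 is near these shares. The transcription factor gene tp63, which defines basal keratinocytes and is given for that reason outside the naming rule, had signals of 868.9 with PGRP-SC siRNA, 932.4 with control siRNA and 822.8 without injection. No array stands out for tp63, and its log2 ratio against control siRNA was -0.10. Against control siRNA, the largest differences above the floor were those of dlx4a at -0.78, dlx3b at 0.73 and postnb at -0.74. Of these, dlx4a and dlx3b are homeobox genes and postnb is a matrix gene. Against uninjected embryos 2 of 14 genes were at least 2-fold lower and 0 at least 2-fold higher, beside 6.09% and 5.76% of named genes. There the median was 0.01, with 8 genes above 0 and 6 below it. The 2 genes, cldn1 at -1.12 and frem3 at -1.29, were added after their values were seen. Both were lowest with PGRP-SC siRNA and highest without injection, with log2 ratios of -0.62 and -0.58 against control siRNA.

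In the periderm list 23 genes gave a ratio against control siRNA, and krt17 alone was 2-fold or more lower. Over all named genes 2.93% were at least 2-fold lower and 2.87% at least 2-fold higher, so this count is near the background share. The median was 0.09. The ictacalcin genes icn and icn2, which encode calcium-binding proteins of the epidermis, had log2 ratios of -0.88 and -0.81 against control siRNA and -0.93 and -1.38 against uninjected embryos. The annexin gene anxa1a, added after its values were seen, went the other way, at 0.75 and 1.499. The icn and icn2 probe sets both carry the suffix for probes that can match other sequences, and whether they read the 2 genes separately was not tested. The adhesion and junction list had a median of 0.14 over 22 genes with 0 at least 2-fold apart, a count also near the shares over all named genes. Its largest differences were those of the tight junction genes tjp3 at 0.92 and f11r.1 at 0.58 and of dspa, which encodes desmoplakin, the anchor of keratin filaments at desmosomes, at 0.47.

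Markers of 2 other tissues are given beside these. All 11 skeletal muscle markers measured had a log2 ratio below 0 against control siRNA, and 5 of them passed 2-fold, beside 2.93% of all named genes. Their median was -0.97, with neb at -1.90, the fast troponin T gene tnnt3a at -1.38 and the myosin light chain gene mylz3 at -1.10. Their summed signal was 46281 with PGRP-SC siRNA, 78926 with control siRNA and 111945 without injection, the order of krt1-19e. Of 9 notochord markers 1, the chondromodulin gene cnmd at -1.64, passed 2-fold downwards, beside 2.93% of all named genes. Of the 9, 7 were below 0 and 2 above it, where 49.7% of all named genes were above 0, and their median was -0.54. The 2 above 0, added after their values were seen, were ntd5 at 0.57 and tbxta at 0.40. Against uninjected embryos 1 of the 9 was at least 2-fold lower and 1 at least 2-fold higher, beside 6.09% and 5.76% of named genes. Against control siRNA the collagen gene col9a2 was at -0.90 and the caveolin gene cav1 at -0.70. The summed signal of this list was 9994 with PGRP-SC siRNA, 13091 with control siRNA and 11503 without injection. Without krt1-19d, krt1-19e, krt4, krt5 and krt8, the summed signal of the basal epidermis list was 27296 with PGRP-SC siRNA, 26570.4 with control siRNA and 26975 without injection. That of the periderm list was 60159, 62847 and 54870.4 in the same order. A large part of the basal sum is id1, at 11175, 9054 and 7267. That PGRP-SC siRNA is highest in the basal sum depends on id1. Without id1 the basal sum is lowest with PGRP-SC siRNA and highest without injection, the order of krt1-19e. That order depends in turn on postnb, at 2627, 4375 and 5098. Without both id1 and postnb the basal sum is lowest with control siRNA, so the rest of the list does not keep the krt1-19e order. The periderm sum still holds krt17, at 3328, 9057 and 5206, and krt18a.1, at 10720, 7447 and 5463. That control siRNA is highest in the periderm sum depends on krt17. None of these lists was at 0 on any array, and their part in the keratin differences was not tested.

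**Figure D4:**
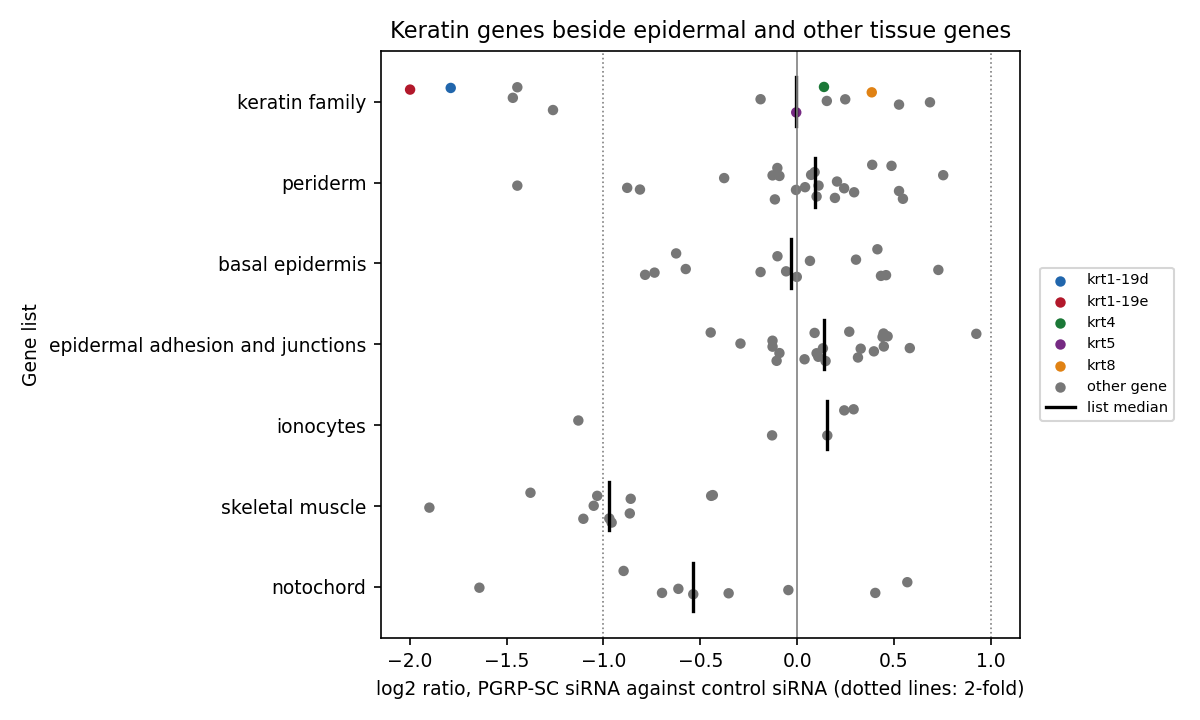
Log2 ratio of PGRP-SC siRNA against control siRNA for each gene of the keratin family, of 4 epidermal lists and of 2 lists of other tissues; each point is a gene, the black bar is the list median and dotted lines mark 2-fold. Bounds are drawn like measured ratios. In the keratin family 5 genes are at least 2-fold lower, among them krt1-19d, drawn at its bound of -1.79. The gene krt15 is drawn at its bound of -0.19 and the others lie between -0.0048 and 0.69. The epidermal medians lie near 0 and the skeletal muscle median is -0.97.

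The genes whose pattern over the 3 arrays was most like that of the brighter krt1-19e probe set were tmsb, neb, fabp7a, slc4a1a and mdh1ab. Likeness was the distance between the pairs of log2 ratios of PGRP-SC siRNA against control siRNA and control siRNA against uninjected, over 6335 named probe sets above the floor on all arrays. The thymosin gene tmsb was nearest, at a distance of 0.0047, with signals of 575.2 with PGRP-SC siRNA, 2299 with control siRNA and 4705 without injection. The giant sarcomere protein gene neb followed at 0.17, fabp7a, of a fatty acid carrier in the brain, at 0.30, the red cell anion exchanger gene slc4a1a at 0.40 and the malate dehydrogenase gene mdh1ab at 0.54. Only 4 probe sets lay within 0.5 of krt1-19e. Within 0.5 of krt4 lay 3310, the nearest of them a2m2h, ulk1b, erh, coa3b and csnk1a1. A pattern over 3 arrays holds only these 2 ratios, and the dimmer krt1-19e probe set, with -1.96 between the controls, would have other neighbours.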

How the data were processed

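The values are signal intensities on a linear scale, as deposited by the authors, from 1-colour Affymetrix arrays hybridised with biotin-labelled cRNA. The software was GCOS 1.4, per the submitters' processing notes, and its settings are not given in any source used here. The mean after removing 2% at each tail was 500.1 on each array. The 115 control probe sets were left out of 15617, and the rest were scaled to a common trimmed mean, with factors from 0.999 to 1.00. The platform annotation named 1 gene for 10795 probe sets, several for 135 and none for 4572, and symbols were updated through the gene ID.

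Log2 ratios were taken after the floor, and 2-fold was the threshold for counting. In a list a gene stands with its brightest probe set on average. Named were all keratin genes, the 3 largest differences of each list among genes above the floor on all arrays, and 5 genes by likeness to each of krt1-19e and krt4; the text says where a gene was added. The members and lists were chosen with earlier results of these data known. Alternatives were 3 other normalizations (cyclic loess with limma 3.58.1), signals as deposited, 3 other floors, a pseudocount of 50, 2 other thresholds and the mean over probe sets. The ratio and count steps were tested on simulated data in which only probe sets far above the floor were changed. That simulation does not cover bounds or ratios near the floor, such as those of krt1-19d. Python 3.11.15 with pandas 2.3.3 was used.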

Additional observations from a re-analysis of the deposited data

How the results depend on the processing

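The direction of the krt1-19e and krt1-19d ratios was kept under every scaling, floor and pseudocount that gave them a value. Neither a floor nor a pseudocount can turn the sign of a ratio, so only the scalings could have changed it. The sign of a bound is set by which array is under the floor. The size of the ratios depended on the floor. No paired analysis was possible because each group has 1 array, and for the same reason no array could be left out. With the floor at the 60th percentile, a signal of 269.4, 1 probe set was at least 2-fold apart in each comparison, 2 keratin genes were against control siRNA and 3 against uninjected embryos. The krt1-19 copies minus the other members were then -1.06 against control siRNA and -1.59 against uninjected embryos, and the median ratio against uninjected embryos was -0.31 over the 6 probe sets that still gave one. A higher floor shortens bounds by construction. With the floor removed or lowered to the 20th percentile, the difference between the copies and the others was -2.63 against control siRNA and -3.16 against uninjected embryos, and the median over all 7 probe sets was -0.91 against control siRNA. Against uninjected embryos that median was -2.87 with no floor and -2.57 with the 20th percentile, beside -1.10. With a pseudocount of 50 the medians were -0.56 and -1.98, and 1 probe set was at least 2-fold apart between the controls, as with a threshold of 3-fold. The mean over probe sets put the difference between the copies and the others at -1.39 and -2.11. Median scaling, quantile normalization, cyclic loess and the signals as deposited left the counts over the 7 keratin probe sets unchanged. Median scaling and quantile normalization moved none of the counts of keratin genes by over 1.5 times. Cyclic loess and the deposited signals were not run for the keratin family and epidermal counts.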

Other observations

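Of 11 genes of other intermediate filaments on the array, 6 gave a ratio of PGRP-SC siRNA against control siRNA. Of these 4 were below 0 and 2 above it, where 49.7% of all named genes were above 0. At least 2-fold lower were 0 and at least 2-fold higher was 1, inaa, beside 2.93% and 2.87% of all named genes. The muscle filament gene desma had signals of 3209 with PGRP-SC siRNA, 5840.1 with control siRNA and 6510.4 without injection, a log2 ratio of -0.86 against control siRNA. The glial filament gene gfap and the mesenchymal filament gene vim had -0.57 and -0.38. The nuclear lamin gene lmnb1, outside the naming rule, had 4972 with PGRP-SC siRNA, 4949 with control siRNA and 4374 without injection, a log2 ratio of 0.01 against control siRNA. The neuronal filament genes inaa and inab, chosen after their values were seen, went opposite ways. The gene inaa had 254.04 with PGRP-SC siRNA against 30.03 with control siRNA and 86.35 without injection, both under the floor, and was at least 1.32 higher on the log2 scale. The gene inab had 92.48, under the floor, with PGRP-SC siRNA, against 175.2 with control siRNA and 203.2 without injection, a bound of -0.79 on the log2 scale against control siRNA.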
